A study of Mus musculus with 4 samples.

Results

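Collagens are the main structural proteins of the extracellular matrix, and this gene group holds their chains together with the enzymes that modify them. The 42 genes were taken from a fixed list of names, chosen with earlier results of these data known. All 42 had a probe set among 18193 genes that could be named on the array. They comprise 34 collagen chains and 8 genes for enzymes and helpers of collagen assembly. Each gene was read from its brightest probe set, by the mean of the 4 arrays, and 37 of the 42 genes passed the filter on low values and were tested.

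Gene expression was measured on 4 oligonucleotide arrays, 2 from a tumorigenic subline called glioma-initiating cell-like (GIC) and 2 from a nontumorigenic subline (non-GIC). Both sublines derive from neuroepithelial cells of the telencephalon of p53-/- C57BL/6 mouse embryos at embryonic day 14.5. Those cells were grown as spheres without serum, in DMEM/F12 with PDGF, bFGF, forskolin, insulin, transferrin, BSA, progesterone, putrescine, selenite, N-acetylcysteine and antibiotics. They received pCMS-EGFP-HRasL61, which carries GFP and an activated HRas, together with pBabe-neo, were kept under neomycin and were sorted for GFP, so the non-GIC arrays share the p53 deletion, the oncogene and the medium with the GIC arrays. Cells without the oncogene were not analysed here. The labels name neither clones nor separate cultures, so the p-values reflect the spread among these 4 samples alone, and that spread may be technical. In bulk RNA, fewer cells of a type and less RNA per cell cannot be told apart.

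A collagen molecule is a rope of 3 chains, which may be copies of 1 chain or products of different genes. Fibrillar collagens form banded fibres, collagen IV forms the sheet of basement membranes, and smaller families decorate fibres, form networks or span the cell membrane. In the endoplasmic reticulum, prolyl and lysyl hydroxylases modify the chains and the chaperone Hsp47, encoded by Serpinh1, holds the folded molecule. Outside the cell the end pieces are cut off, and the rope joins fibres or networks. Brain tissue holds little fibrillar collagen outside vessels and meninges, while basement membrane collagens surround its vessels.

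The regions just before the start of 6 genes are shown because the results below turn on these chains. Col8a1 and Col8a2 encode the chains of collagen VIII and had opposite signs between sublines, Col4a6 and Col4a5 start close together on chromosome X and had unlike values, and Col6a1 and Col6a2 lie near each other on chromosome 10 with like values. Each sequence is the 200 bases before the outermost annotated start, 5' to 3' on the strand of the gene, from RefSeq (build GRCm38.p6). Capitals mark matches to the TATA box (letters TATAAA), to the box named for its letters CCAAT, or to the GC box core (letters GGGCGG), on either strand, and overlapping matches were counted singly.
Col8a1 (chr16:57754738-57754937, minus strand): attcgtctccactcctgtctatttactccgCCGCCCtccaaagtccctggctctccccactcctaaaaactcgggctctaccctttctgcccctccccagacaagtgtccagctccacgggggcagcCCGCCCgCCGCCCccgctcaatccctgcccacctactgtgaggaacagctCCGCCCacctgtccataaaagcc
Col8a2 (chr4:126286594-126286793, plus strand): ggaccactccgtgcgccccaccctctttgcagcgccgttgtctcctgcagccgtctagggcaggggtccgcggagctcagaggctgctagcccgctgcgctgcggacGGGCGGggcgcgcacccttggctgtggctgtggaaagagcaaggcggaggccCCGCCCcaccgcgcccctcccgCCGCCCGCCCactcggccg
Col4a6 (chrX:141474096-141474295, minus strand): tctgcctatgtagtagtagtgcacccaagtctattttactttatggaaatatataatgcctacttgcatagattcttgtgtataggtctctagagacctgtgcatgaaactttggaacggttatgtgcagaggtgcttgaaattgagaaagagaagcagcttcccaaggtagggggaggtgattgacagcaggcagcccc
Col4a5 (chrX:141475170-141475369, plus strand): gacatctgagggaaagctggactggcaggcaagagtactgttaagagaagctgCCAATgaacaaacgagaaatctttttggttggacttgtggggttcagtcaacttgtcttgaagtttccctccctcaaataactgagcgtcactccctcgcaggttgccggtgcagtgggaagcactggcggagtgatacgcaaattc
Col6a1 (chr10:76726045-76726244, minus strand): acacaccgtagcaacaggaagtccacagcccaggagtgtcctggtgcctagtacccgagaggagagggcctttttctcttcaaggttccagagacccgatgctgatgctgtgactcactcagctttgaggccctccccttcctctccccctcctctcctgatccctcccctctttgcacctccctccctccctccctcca
Col6a2 (chr10:76623631-76623830, minus strand): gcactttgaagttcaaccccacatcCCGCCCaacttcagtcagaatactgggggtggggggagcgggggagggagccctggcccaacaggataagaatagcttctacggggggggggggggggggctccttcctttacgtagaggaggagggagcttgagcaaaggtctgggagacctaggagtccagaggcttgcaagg

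The Col8a1 and Col8a2 windows each held 4 matches to GGGCGG and none to the other motifs. The Col4a5 window held 1 CCAAT and the Col4a6 window none of the 3 motifs. Col6a2 had 1 GGGCGG and Col6a1 none. Such a window could be cut for 23 of the 34 genes of the group that the table holds. GGGCGG occurred in 14 of these 23 windows and in 31.0% of all 32851 windows of that length in the table, CCAAT in 7 against 29.3%, and TATAAA in 3 against 10.0%. The median GC content was 61.0% in the 23 windows and 53.0% in all windows. The windows of the group end at the outermost annotated start, with 1 per gene. Those over all entries were cut at a fixed place in each entry, whether or not it lay at an outermost start. The shares and GC contents therefore compare windows placed by unlike rules. These matches describe the letters only.

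The values are log2 signals, and the arrays had medians of 6.58 to 6.63. Genes were tested where 2 or more arrays exceeded 5.97, the 40th percentile over the whole table. Of 12 neural stem cell markers, 11 had a named probe set and 9 were tested. Sox2, Hes1 and Vim were well above that level on every array, Nes was lower in GIC, and Olig2 and Prom1 lay under it on every array. Fabp7 also passed as lower in GIC, but it was tested through the non-GIC arrays alone. Both its GIC arrays held the same value of 5.23, under the level. Of the 9 tested, 8 had a log2 fold change (GIC minus non-GIC) below 0, from -2.07 for Nes to -0.005 for Vim. Sox9 went the other way, with 7.66 and 8.76 in non-GIC and 10.13 and 9.24 in GIC (1.47, limma adjusted p = 0.231). Msi1 stayed between 6.99 and 7.17 and Hes5 between 6.43 and 6.77. Markers of fibroblasts and mural cells other than collagens were tested for 10 of 13 genes, with Lum, Rgs5 and Thy1 under the level on every array. Their summed signal (log2) was 14.61 and 15.07 in non-GIC, 15.84 for GIC replicate 1 and 14.74 for GIC replicate 2. Endothelial sums lay between 9.58 and 10.17 and leukocyte sums between 8.96 and 9.01. Pecam1, Cdh5, Tek and Emcn of the 8 endothelial markers, and 6 of the 9 leukocyte markers, lay under the level on every array. Of the 4 endothelial markers tested, Flt1 had 8.64 and 8.08 in non-GIC and 9.37 and 9.18 in GIC (0.92, limma adjusted p = 0.165). Kdr lay between 7.42 and 7.58 on all arrays, Cldn5 between 6.23 and 6.48 and Esam between 6.71 and 6.86. The 2 leukocyte markers tested were Csf1r, at 7.26 to 7.57, and Cd68, at 6.20 to 7.03.

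**Figure D1:**
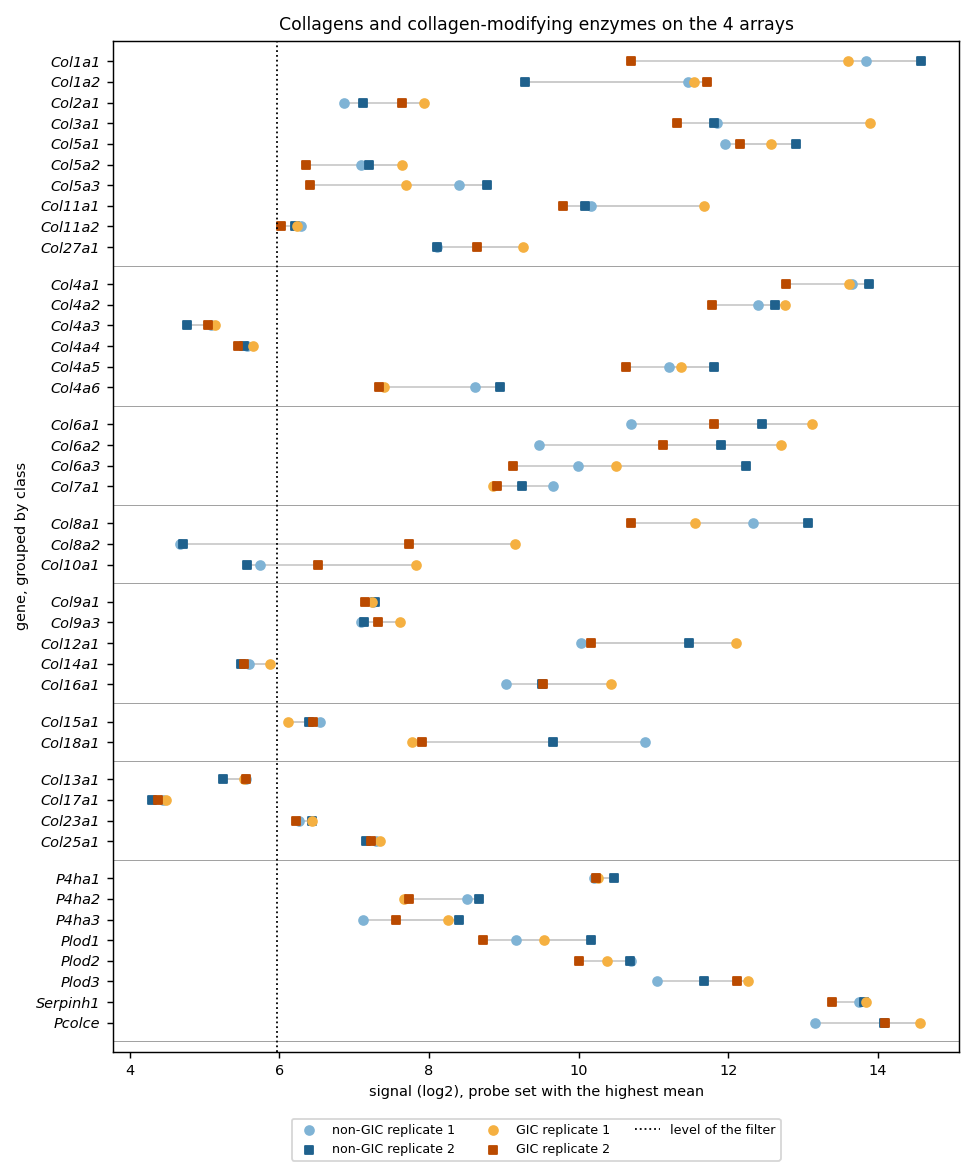
Signal (log2, x axis) of each of the 42 genes (y axis, grouped by class) on the 4 arrays, with 1 point per array and the level of 5.97 as a dotted line. Col1a1 spans 10.70 to 14.57 and Col8a2 spans 4.67 to 9.15, and 5 genes lie left of the line on every array.

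Between sublines, 2 of the 37 tested genes passed the threshold. Col8a2, a chain of the short network-forming collagen VIII, rose in GIC, though it entered the test through the GIC arrays alone. Col4a6, a chain of basement membrane collagen IV, fell. That is 1 gene higher, where 1.23% of all 13366 tested genes were higher, and 1 gene lower, where 0.688% were lower (limma with Benjamini-Hochberg adjustment over all tested genes, two-sided, threshold 0.05; 1.92% in either direction). At an unadjusted p under 0.05 there were 11 of 37 genes, against 17.9% of all tested genes. The median log2 fold change, GIC minus non-GIC, was -0.07 for the group and -0.01 for all tested genes, with 16 genes above 0 and 21 below. The groups did not overlap for 19 of 37 genes, against 50.4% of all tested genes, a share near the background. For 1 gene alone, the smallest p that 2 against 2 arrays allow by exact permutation is 0.333.

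**Figure D2:**
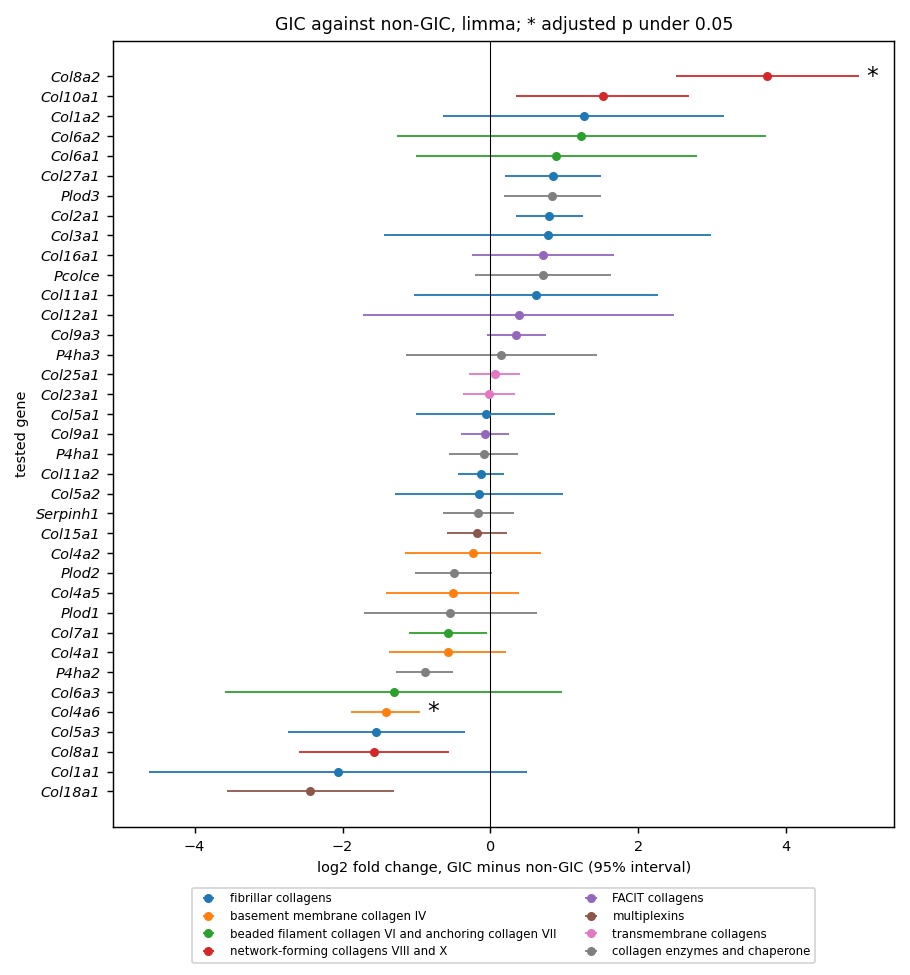
Log2 fold change (GIC minus non-GIC, x axis) with its 95% limma interval for the 37 tested genes (y axis), coloured by class, with an asterisk at an adjusted p under 0.05. Values run from -2.43 for Col18a1 to 3.74 for Col8a2, and most intervals cover 0.

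Col8a2 had signals of 4.67 and 4.72 in non-GIC and of 9.15 and 7.73 in GIC. Both non-GIC values lie under the filter level and both GIC values above it, so the gene entered the test through the GIC arrays alone. The fitted log2 difference was 3.74 (SE 0.47, limma adjusted p = 0.0434), and its size and p-value rest on non-GIC signals under that level. With the level itself in place of the non-GIC values, the GIC mean was at least 5.53-fold higher. The log2 difference was 3.04 without GIC replicate 1 and 4.45 without GIC replicate 2. The call was lost when either non-GIC array was left out and with eBayes without a trend (limma adjusted p = 0.0548). Col8a1, its partner chain, had the opposite sign, with 12.34 and 13.06 in non-GIC and 11.55 and 10.70 in GIC. The groups did not overlap, and the value of -1.58 (SE 0.39, limma adjusted p = 0.146) did not pass. All 3 Col8a1 probe sets had the same sign. Col10a1, the related chain of hypertrophic cartilage, had 5.75 and 5.57 in non-GIC and 7.83 and 6.51 in GIC. Its non-GIC values too lie under the filter level, so it was tested through the GIC arrays alone. The fitted log2 difference of 1.52 (SE 0.44, limma adjusted p = 0.196) did not pass, and the GIC mean was 2.30-fold above the level. Leaving out GIC replicate 1 gave 0.86 and leaving out GIC replicate 2 gave 2.18.

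Col4a6 was at 8.61 and 8.95 in non-GIC and at 7.40 and 7.33 in GIC. The arrays of each subline lay close together and the groups were apart. It fell by 1.42 on the log2 scale (SE 0.18, limma adjusted p = 0.0428), or 2.67-fold, and the second Col4a6 probe set had the same sign. The call was lost when any 1 array was left out, with limma adjusted p from 0.102 to 0.146 and log2 fold changes from -1.25 to -1.59. Col4a5, its partner in collagen IV, is transcribed in the opposite direction, with 1274 bases between the starts of the pair. Col4a5 had 11.20 and 11.81 in non-GIC and 11.36 and 10.63 in GIC, so its groups overlapped (-0.51, SE 0.34, limma adjusted p = 0.510).

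The major chains of basement membranes, Col4a1 and Col4a2, start side by side on chromosome 8 (gene spans 11198423 to 11312889 and 11312805 to 11449287 in GRCm38.p6). Col4a1 had 13.65 and 13.88 in non-GIC and 13.61 and 12.77 in GIC, and Col4a2 had 12.40 and 12.62 in non-GIC and 12.76 and 11.78 in GIC. GIC replicate 2 was the lowest array for both chains and for Col4a5. Neither passed (-0.58 and -0.24, 95% intervals -1.37 to 0.21 and -1.16 to 0.68). Col4a3 and Col4a4, the chains of the kidney filter, lay under the filter level on every array, at 4.76 to 5.14 and 5.45 to 5.65, and were not tested. Of the multiplexins, which sit at basement membranes, Col18a1, the precursor of endostatin, had the most negative value of the group. It was at 10.88 and 9.65 in non-GIC and at 7.77 and 7.90 in GIC. The non-GIC arrays were both above the GIC arrays but 2.34-fold apart from each other. The log2 fold change was -2.43 (SE 0.43, limma adjusted p = 0.0833), and it was -1.82 when the first non-GIC array was left out and -3.05 when the second was, while the other probe set had the same sign. Col15a1 stayed between 6.12 and 6.54 on all arrays.

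**Figure D3:**
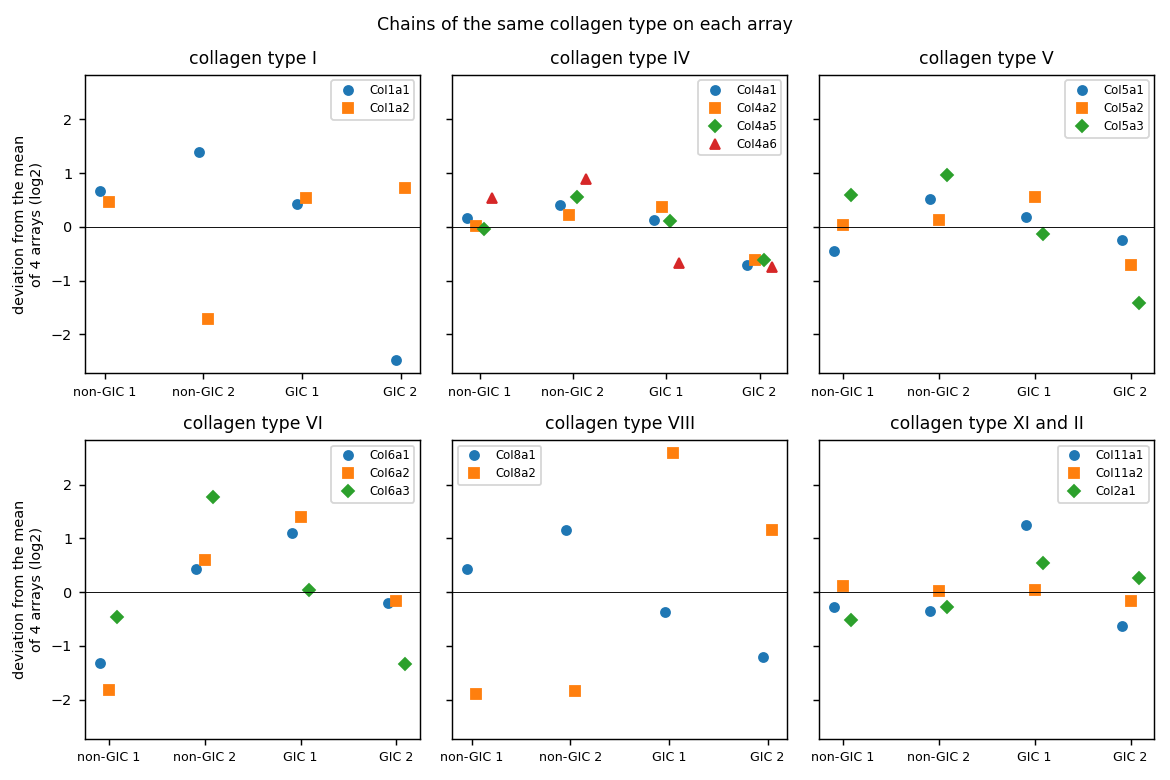
Deviation of each chain from its own mean over the 4 arrays (log2, y axis) on each array (x axis), with 1 panel per collagen type (XI and II together) and 1 marker per chain. Col1a1 is lowest on GIC replicate 2 and Col1a2 on non-GIC replicate 2, and Col8a1 and Col8a2 lie on opposite sides of 0 on every array.

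The chains of collagen I, the main fibrillar collagen of skin, bone and tendon, were low on different arrays. Col1a1 had 13.84 and 14.57 in non-GIC, 13.59 for GIC replicate 1 and 10.70 for GIC replicate 2. Col1a2 had 11.46 on non-GIC replicate 1, 9.28 on non-GIC replicate 2, and 11.55 and 11.72 in GIC. Col1a1 was thus low on GIC replicate 2 alone and Col1a2 on non-GIC replicate 2 alone. The second Col1a1 probe set had 8.79 on GIC replicate 2 and 10.42 to 11.32 on the other arrays, and the second Col1a2 probe set past the filter had 7.55 on non-GIC replicate 2 and 9.84 to 10.03 on the others. From non-GIC replicate 1 to 2, Col1a1 differed by 0.73 and Col1a2 by -2.18 on the log2 scale. Between sublines neither passed. Col1a1 had -2.06 (SE 0.98, limma adjusted p = 0.364; -3.51 without GIC replicate 1 and -0.61 without GIC replicate 2), and Col1a2 had 1.26 (SE 0.73, limma adjusted p = 0.447; 2.35 if non-GIC replicate 1 is left out, 0.17 if non-GIC replicate 2 is).

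Col3a1, which forms thin fibres with collagen I, had 11.85 and 11.81 in non-GIC, 13.89 on the first GIC array and 11.32 on the second. The GIC arrays lay on either side of the non-GIC pair, 5.93-fold apart. With all arrays the log2 fold change was 0.77 (SE 0.85, limma adjusted p = 0.692). Leaving out GIC replicate 2 gave 2.06 and leaving out GIC replicate 1 gave -0.51. Each of these 2 fits holds 1 GIC array and so measures no spread within GIC. Col5a2, a chain of collagen V, lies 24624 bases from Col3a1 on chromosome 1. It had 7.10 and 7.20 in non-GIC and 7.63 and 6.35 in GIC, again on either side (-0.16, with -0.80 without GIC replicate 1 and 0.48 without GIC replicate 2).

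Collagen V sets the width of collagen I fibres. Its other chains were Col5a1, at 11.95 to 12.90 in non-GIC and 12.15 to 12.57 in GIC, and Col5a3, at 8.40 and 8.78 in non-GIC and 7.69 and 6.40 in GIC. Col5a3 did not overlap between groups and did not pass (-1.54, SE 0.46, limma adjusted p = 0.198), with -2.19 on leaving out GIC replicate 1 and -0.90 on leaving out GIC replicate 2. Col11a1, a chain of the minor cartilage fibril collagen XI, followed the pattern of Col3a1, with 10.16 and 10.08 in non-GIC, 11.68 for GIC replicate 1 and 9.80 for GIC replicate 2. Its value was 0.62, or 1.56 without GIC replicate 2 and -0.32 without GIC replicate 1. Its partner Col11a2 ranged only from 6.02 to 6.29. Col2a1, the main cartilage collagen, had 6.86 and 7.11 in non-GIC and 7.93 and 7.64 in GIC (0.80, SE 0.17, limma adjusted p = 0.124), and Col27a1 had 8.10 and 8.11 in non-GIC and 9.26 and 8.64 in GIC (0.84, SE 0.25, limma adjusted p = 0.196). In all, 5 of the 10 fibrillar chains had a value above 0 and 5 below, and none passed, with 3 at an unadjusted p under 0.05.

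Collagen VI forms beaded filaments around cells from Col6a1, Col6a2 and Col6a3, and its chains differed more between arrays of a subline than between sublines. Col6a1 had 10.69 on non-GIC replicate 1 and 12.45 on non-GIC replicate 2, and 13.12 and 11.81 in GIC. Col6a2 had 9.47 and 11.90 in non-GIC and 12.70 and 11.13 in GIC. These chains, 85161 bases apart on chromosome 10, ranked the 4 arrays in the same order, with non-GIC replicate 1 lowest. Col6a3, on chromosome 1, had 9.99 and 12.23 in non-GIC and 10.50 and 9.12 in GIC, so non-GIC replicate 2 was its highest array and GIC replicate 2 its lowest. The values of 0.89, 1.23 and -1.31 for Col6a1, Col6a2 and Col6a3 did not pass (limma adjusted p = 0.589, 0.571 and 0.507). Leaving out non-GIC replicate 1 gave 0.02, 0.01 and -2.43 in that order, and leaving out non-GIC replicate 2 gave 1.77, 2.44 and -0.19. Leaving out GIC replicate 1 gave 0.23, 0.44 and -1.997, and leaving out GIC replicate 2 gave 1.55, 2.01 and -0.61. With 2 arrays per subline, such shifts restate the differences within each pair. Col7a1, the anchoring fibril of skin, had 9.66 and 9.25 in non-GIC and 8.85 and 8.91 in GIC (-0.57, SE 0.20, limma adjusted p = 0.257).

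Among the FACIT collagens, which attach to fibre surfaces, Col12a1 had 10.03 and 11.47 in non-GIC and 12.11 and 10.16 in GIC. The groups overlapped, and its value of 0.38 became 1.36 on leaving out GIC replicate 2, -0.59 on leaving out GIC replicate 1, -0.34 on leaving out non-GIC replicate 1 and 1.10 on leaving out non-GIC replicate 2. Col16a1 had 9.02 and 9.51 in non-GIC and 10.43 and 9.53 in GIC, with non-GIC replicate 2 and GIC replicate 2 almost level. Col9a1 and Col9a3 stayed between 7.09 and 7.61, and Col14a1 lay under the filter level, at 5.49 to 5.87. Of the membrane-spanning collagens, Col23a1 and Col25a1 had values of -0.02 and 0.06 with 95% intervals of -0.37 to 0.33 and -0.29 to 0.40. The other Col25a1 probe set, above the filter level on 1 array only, had 4.52 and 4.56 in non-GIC and 5.39 and 6.05 in GIC. The mean of the Col25a1 probe sets gave 0.62. Col13a1 and Col17a1 lay under the filter level on every array, at 5.25 to 5.56 and 4.29 to 4.48.

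None of the 8 enzyme and helper genes passed, and 2 had an unadjusted p under 0.05. P4ha2, a catalytic chain of the prolyl hydroxylase that stabilises the rope, had 8.50 and 8.67 in non-GIC and 7.66 and 7.73 in GIC. The groups were apart and the value was -0.89 (SE 0.15, limma adjusted p = 0.0755). P4ha1, the widely used catalytic chain of the same enzyme, ranged from 10.20 to 10.47 over all arrays, with a 95% interval of -0.56 to 0.37, and P4ha3 had 7.11 and 8.40 in non-GIC and 8.25 and 7.55 in GIC. Its value of 0.15 became -0.49 when the first non-GIC array was left out and 0.79 when the second was.

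The lysyl hydroxylases prepare collagen for crosslinks and for sugar addition. Plod3 had 11.04 and 11.67 in non-GIC and 12.27 and 12.12 in GIC (0.84, SE 0.25, limma adjusted p = 0.202). Plod2 had 10.69 and 10.68 in non-GIC and 10.38 and 10.00 in GIC (-0.50, SE 0.20, limma adjusted p = 0.295), and Plod1 overlapped between groups (-0.54). Serpinh1, the collagen chaperone, lay between 13.38 and 13.84 on all arrays, with a log2 fold change of -0.16 and a 95% interval of -0.64 to 0.32. Pcolce, which speeds removal of the tail piece of procollagen, had 13.15 and 14.08 in non-GIC and 14.56 and 14.09 in GIC (0.71, SE 0.35, limma adjusted p = 0.380).

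The arrays of a subline differed widely in this group, whose genes were chosen with earlier results of these data known. GIC replicates 1 and 2 were at least 2-fold apart for 11 of 37 tested genes, against 3.16% of all tested genes. All 11 were higher on replicate 1, where 2.28% of all genes were, and all were collagen chains. They were Col1a1, Col3a1, Col5a2, Col5a3, Col11a1, Col6a1, Col6a2, Col6a3, Col8a2, Col10a1 and Col12a1, from 2.43-fold for Col5a2 to 7.43-fold for Col1a1. In 5 of them a second probe set passed the filter, and all 5 of those were also at least 2-fold higher on replicate 1. None of the 8 enzyme and helper genes was 2-fold apart between the GIC arrays. By size of the difference between GIC arrays, Col1a1 ranked 4 and Col3a1 ranked 8 among all 13366 tested genes.

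The non-GIC arrays were at least 2-fold apart for 8 of 37 genes, against 3.02% of all tested genes. Col6a1, Col6a2, Col6a3, Col12a1, P4ha3 and Plod1 were higher on replicate 2, and Col1a2 and Col18a1 on replicate 1, by up to 5.39-fold for Col6a2. Over all 13366 tested genes, 309 were at least 2-fold higher on replicate 2 and 94 on replicate 1. The second probe sets of Col1a2, Col6a2 and Col12a1 were also at least 2-fold apart, that of Col18a1 had the same direction and that of Plod1 did not. Col6a1, Col6a2, Col6a3 and Col12a1 differed at least 2-fold within both sublines, as did 112 of all 13366 tested genes. These counts are descriptions of 2 arrays each and carry no test.

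**Figure D4:**
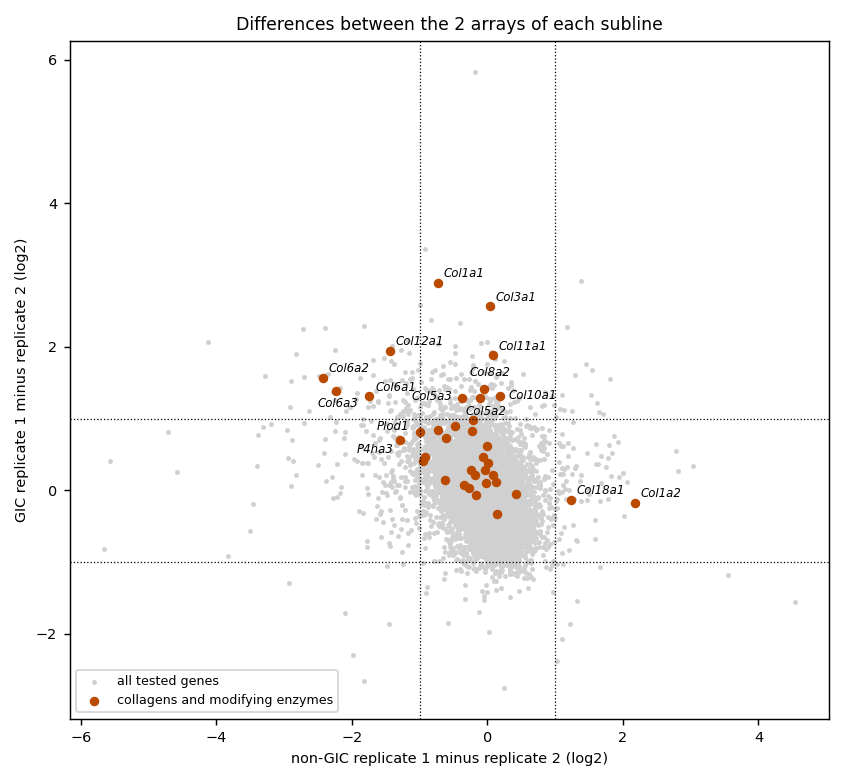
Difference between the arrays of non-GIC (x axis) and of GIC (y axis), replicate 1 minus replicate 2 on the log2 scale, for all 13366 tested genes in grey and the 37 genes of the group in colour, with dotted lines at 2-fold. Of the coloured points 11 lie above the upper line and none below the lower one, and Col1a2 lies far to the right at 2.18.

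Averaged over the tested collagen chains, the deviation from the mean of each gene was 0.43 for GIC replicate 1 and -0.42 for GIC replicate 2, and -0.16 and 0.14 on non-GIC replicates 1 and 2. Between the GIC arrays the noncollagen markers of fibroblasts and mural cells differed in the same direction. All 10 that were tested were higher on GIC replicate 1 than on GIC replicate 2, as were 50.7% of all tested genes, though Mfap5 and Tagln by only 0.03 on the log2 scale. At least 2-fold higher were 5 of the 10, beside 2.28% of all tested genes. Postn, a fibroblast matrix protein, had 10.87 and 12.41 in non-GIC and 14.30 and 12.46 in GIC. Pdgfrb, a mural cell receptor, had 11.82 and 12.30 in non-GIC and 12.56 and 11.18 in GIC. Between the non-GIC arrays 7 of the 10 were higher on replicate 2, as were 6417 of all 13366 tested genes. The other 3 were higher on replicate 1, and of these Tagln had 11.71 and 11.07. Between sublines 6 of the 10 had a log2 fold change above 0 and 4 below, beside 6479 and 6887 of all 13366 tested genes. Tagln had -1.24 (limma adjusted p = 0.113) and Pdgfra 2.26 (limma adjusted p = 0.0504). The marker list too was chosen with earlier results of these data known. The part of these markers in the collagen values was not tested.

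Other genes of the collagen pathway were taken from a list of 47, of which 40 had a named probe set and 32 were tested. None passed, and the median log2 fold change was 0.16. An unadjusted p under 0.05 was found for 8 of 32, beside 17.9% of all tested genes. Among folding and modification genes (15 tested), P3h2, a prolyl 3-hydroxylase, had 8.03 and 8.38 in non-GIC and 8.99 and 9.45 in GIC (1.01, limma adjusted p = 0.139), and Creb3l1, a transcription factor of collagen secretion, had -0.78 (adjusted p = 0.188). Of 3 propeptide processing genes, the procollagen C-proteinase Bmp1 had 10.38 and 10.85 in non-GIC and 9.98 and 9.56 in GIC (-0.84, limma adjusted p = 0.206), and Tll1 had 0.35. Of 7 receptor genes, the integrin chain Itgb1 had -0.70 (limma adjusted p = 0.0778) and the collagen receptor kinase Ddr2 -1.31 (adjusted p = 0.115). The 3 other collagen chains tested had values from -0.25 for Col22a1 to -0.0045 for Col6a4, with -0.05 for Col20a1.

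Of the lysyl oxidases, which crosslink collagen outside the cell, 4 were tested. Loxl1 had 9.31 and 10.05 in non-GIC and 10.59 and 10.76 in GIC (0.99, limma adjusted p = 0.194), and Loxl4 had 0.44 (adjusted p = 0.270). Lox, named after its values were seen, had 10.95 and 11.14 in non-GIC, 13.77 for GIC replicate 1 and 7.93 for GIC replicate 2. Its GIC arrays lay on either side of the non-GIC pair, in the same order as those of Col1a1 and Col3a1. Its log2 fold change was -0.20 with all arrays, -3.12 without GIC replicate 1 and 2.72 without GIC replicate 2.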

How the data were processed

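Total RNA from 4 samples, 2 GIC and 2 non-GIC, was made into biotin-labelled cRNA and hybridised to Affymetrix arrays, per the labels' protocols. The deposited table holds 1 value on a log2 scale per probe set and array for 45101 probe sets; the scale was read from the values (2.75 to 15.12), whose near-equal quantiles show normalization before deposit. The method is not given in the sources used here, and neither detection calls nor scanner files were used here. No arrays held identical values (0 pairs).

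Probe sets were named through the platform annotation, with symbols updated by Entrez identifier to the GRCm38.p6 gene table. Of them 34945 had 1 symbol, and 932 with several were left out. Each gene was represented by its probe set with the highest mean. Tests used limma 3.58.1 (R 4.3.3) with a single term for subline and eBayes with its variance trend (2 residual and 2.72 prior degrees of freedom), on genes over the 40th percentile on 2 or more arrays, with Benjamini-Hochberg adjustment over all 13366 tested genes. The fit was tested on simulated data. The number of arrays limits the precision. The plots used matplotlib 3.10.9 (Python 3.11.15).

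The genes and lists were chosen with earlier results of these data known. All 42 genes are accounted for; of each other pathway list the genes past the threshold, or else the 2 with the smallest p, were named. The settings varied were a block for replicate number, the scaling (quantile or median), the filter (none or the 60th percentile), the probe sets (their mean per gene, or none with a suffix for binding several transcripts), eBayes (robust, or with no trend) and the omission of each array with the same genes tested; an array left alone in its group was assumed to vary like the other group.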

Additional observations from a re-analysis of the deposited data

How the results depend on the processing

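The labels do not say what arrays with the same replicate number share. Deviations of same-numbered arrays had a correlation of -0.32 over all tested genes and -0.43 over the tested genes of the group. Arrays with unlike numbers thus tended to deviate in the same direction. With the replicate number as a block, 29 genes passed over all genes and 0 in this group (Col8a2 adjusted p = 0.118, Col4a6 adjusted p = 0.164; both passed without it). A block with crossed numbers, chosen after seeing the data, gave 685 genes over all, 4 in the group (Col8a2, Col4a6, Col8a1 and Col18a1) and 3 among the other pathway genes. With eBayes without a trend 1 gene of the group passed, Col4a6. Leaving out 1 array gave 12 to 188 genes over all (257 with all arrays), 0 to 3 in the group and 0 to 1 among other pathway genes, the last of these being Lox, which had -3.12 without GIC replicate 1, 2.72 without GIC replicate 2 and -0.20 with all arrays. Under quantile normalization, median centring, both filters, the probe set choices and robust eBayes, 198 to 261 genes passed over all and 2 in the group, Col8a2 and Col4a6. Under the scaling and probe set choices, 10 to 11 genes of the group were at least 2-fold apart between GIC arrays and 6 to 8 between non-GIC arrays. Among values that did not pass, Col25a1 turned sign with quantile normalization and Col9a1 with the mean of its probe sets, and with 1 array left out 2 to 5 genes of the group did.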

Other observations

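Among all tested genes, the differences between the GIC arrays that exceeded that of Col1a1 were in Lox, the protocadherin Pcdhb17 and the membrane lectin Chodl. Chodl had 9.06 and 7.68 in non-GIC and 9.00 and 6.08 in GIC. Mmp2, a gelatinase that cleaves denatured collagen, was also among the 10 largest, with 8.09 and 9.08 in non-GIC and 10.51 and 7.92 in GIC. Between the non-GIC arrays the largest differences included Cthrc1, a collagen triple helix repeat protein, at 7.03 and 11.75 in non-GIC and 12.83 and 12.01 in GIC, and Islr, a leucine-rich repeat protein, at 4.30 and 8.43 in non-GIC and 11.25 and 9.19 in GIC. For Mmp2, Cthrc1 and Islr, as for Col6a1 and Col6a2, GIC replicate 1 was the highest of the 4 arrays. Chodl was highest on non-GIC replicate 1. The rest of the 10 largest differences between the non-GIC arrays were mixed. Cemip and Grb10 were highest on GIC replicate 1, and Cyp1b1, Slc6a15 and Lhx2 on GIC replicate 2. Bex1 was highest on non-GIC replicate 1, and Ccnd2 and Dio2 on non-GIC replicate 2. These genes were named after their values were seen, and no test was made.

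Dpt, which encodes the collagen-binding matrix protein dermatopontin and stood on the fibroblast and mural marker list, was the only one of the 10 tested genes of that list past the threshold. Its signals were 5.05 and 5.69 in non-GIC and 10.21 and 8.75 in GIC (fitted log2 difference 4.11, SE 0.53, limma adjusted p = 0.0459). Both non-GIC values lie under the filter level of 5.97, so it was tested through the GIC arrays alone, and the GIC mean was 11.4-fold above that level. The cartilage matrix protein Comp, which binds fibrillar collagens, had 6.18 and 6.52 in non-GIC and 8.75 and 7.86 in GIC (1.95, limma adjusted p = 0.0772). Of the other 3 tested cartilage and bone markers, none passed. Acan stayed between 6.39 and 6.58, Sp7 between 6.71 and 6.92 and Alpl between 5.88 and 6.21. Matn1, Cnmd, Hapln1 and Ibsp of the same list lay under the filter level on every array.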
